A study of Mus musculus with 4 samples.

Results

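SMAD4 binding was examined at 10 genes whose products hold, carry or release latent TGFβ: the integrin genes Itgav, Itgb1, Itgb3, Itgb5 and Itgb8, the tether genes Lrrc32 and Nrros, the latent TGFβ binding protein gene Ltbp1, the thrombospondin 1 gene Thbs1 and the proprotein convertase gene Furin. They are 10 of 26089 mouse genes with curated RefSeq transcripts, and they were listed by name, with earlier results of these data known. A SMAD4 peak was counted for a gene when its summit lay in the gene body or within 50 kb of a transcription start site (TSS) of the gene. Overlapping peaks of both replicates (by at least 1 bp) were merged into a shared region.

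The cells were alveolar macrophages (AMs), which live in the lung airspaces, taken by bronchoalveolar lavage and flow cytometric sorting from 9-wk-old wild-type C57BL/6J mice. HT-ChIPmentation, a form of chromatin immunoprecipitation with adapters inserted by a transposase on the beads, was used to map SMAD4. There were 2 SMAD4 libraries, called replicates 1 and 2, and 2 input libraries, which served the peak caller as controls and have no values of their own here. The sources used here do not say whether the replicates came from separate mice or whether mice were pooled, and there was no second condition, so that no contrast could be tested.

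TGFβ is secreted as a latent complex, in which the mature cytokine stays enclosed by its own propeptide. Furin cuts the precursor, LTBP1 stores the complex in the extracellular matrix, and GARP (the product of Lrrc32) and NRROS hold it on cell surfaces, NRROS on myeloid cells. Integrins that contain the αV chain, above all αVβ6 and αVβ8, bind the propeptide and set the cytokine free. Released TGFβ signals through receptor-activated SMAD proteins, which enter the nucleus with SMAD4.

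Of the 10 genes, 5 had at least 1 shared region: Furin with 6, Itgb5 with 3, Nrros and Ltbp1 with 2 each, and Itgb1 with 1. Itgav and Itgb8 had a single peak each, in 1 replicate, and Itgb3, Lrrc32 and Thbs1 had none in either. Across all 20923 protein-coding genes 39.1% had a shared region by the same rule, and 58.2% had a peak in at least 1 replicate, compared with 7 of the 10 genes. By nearest TSS, irrespective of distance, 6 of the 10 genes were assigned a shared region, compared with 21.5% of protein-coding genes. These counts describe the genes and were not tested.

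The bases under the summits are shown for the strongest shared region of each bound gene, ranked by the smaller fold enrichment of the 2 replicates, and for 3 further regions chosen after their strings were seen. Each line is the plus strand of mm10, 5′ to 3′, with the mean summit of both replicates at the centre of 201 bp, and capitals mark consensus strings described further on.
Furin (inside Man2a2), chr7:80370126-80370326: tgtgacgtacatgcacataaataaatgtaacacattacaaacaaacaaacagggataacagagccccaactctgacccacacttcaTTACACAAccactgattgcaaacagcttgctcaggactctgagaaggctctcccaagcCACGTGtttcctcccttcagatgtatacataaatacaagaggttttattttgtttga
Furin (inside Fes), chr7:80386669-80386869: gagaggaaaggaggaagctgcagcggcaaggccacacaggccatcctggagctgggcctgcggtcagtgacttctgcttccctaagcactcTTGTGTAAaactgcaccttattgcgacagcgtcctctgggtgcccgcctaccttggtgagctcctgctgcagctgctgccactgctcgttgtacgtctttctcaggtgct
Furin (first intron), chr7:80404161-80404361: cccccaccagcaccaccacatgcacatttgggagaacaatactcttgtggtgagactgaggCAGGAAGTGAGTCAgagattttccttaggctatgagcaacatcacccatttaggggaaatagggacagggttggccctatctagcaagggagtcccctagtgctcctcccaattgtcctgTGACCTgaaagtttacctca
Ltbp1 (strongest), chr17:75147319-75147519: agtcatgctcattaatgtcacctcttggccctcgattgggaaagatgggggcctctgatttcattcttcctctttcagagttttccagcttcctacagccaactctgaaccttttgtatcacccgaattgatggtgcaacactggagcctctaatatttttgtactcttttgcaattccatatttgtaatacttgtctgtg
Ltbp1 (weaker), chr17:75119510-75119710: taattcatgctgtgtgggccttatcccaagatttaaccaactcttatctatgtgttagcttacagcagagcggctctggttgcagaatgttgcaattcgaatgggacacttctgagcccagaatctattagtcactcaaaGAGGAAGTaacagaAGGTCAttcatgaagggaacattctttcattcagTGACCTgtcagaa
Itgb5 (strongest), chr16:33921555-33921755: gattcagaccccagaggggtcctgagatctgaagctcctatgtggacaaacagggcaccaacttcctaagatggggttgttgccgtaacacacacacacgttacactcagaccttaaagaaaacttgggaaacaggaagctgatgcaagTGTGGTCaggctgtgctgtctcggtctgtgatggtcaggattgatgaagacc
Nrros (inside Bex6), chr16:32180504-32180704: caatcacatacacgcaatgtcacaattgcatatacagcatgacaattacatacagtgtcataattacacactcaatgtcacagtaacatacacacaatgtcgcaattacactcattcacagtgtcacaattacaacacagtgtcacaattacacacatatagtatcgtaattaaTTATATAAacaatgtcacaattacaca
Itgb1, chr8:128655034-128655234: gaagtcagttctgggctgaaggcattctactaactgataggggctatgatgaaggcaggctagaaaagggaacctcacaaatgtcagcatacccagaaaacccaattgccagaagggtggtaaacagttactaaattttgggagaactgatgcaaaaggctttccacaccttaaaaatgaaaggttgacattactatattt

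Fold enrichment is the number of fragments stacked at the summit over the control level of the peak caller, each plus 1. At 79.5% of peaks in replicate 1 and 81.0% in replicate 2 the control level was the background of the whole list, not a local value. The lists held 16369 peaks in replicate 1 and 19015 in replicate 2, of which 69.4% and 59.2% had a partner, in 10964 shared regions. The background control level was 2.08 fragments in replicate 1 and 1.22 in replicate 2, and folds were higher in replicate 2 at 87.2% of all shared regions (median ratio 1.39). A gap between the replicates at 1 region is therefore not read as a difference in binding. The weakest listed summits held 9 and 7 fragments. Sites with fewer fragments are not in the lists, so that a gene without a peak may still have weaker binding. As a check of the labelled cells, all 10 AM marker genes had a shared region, as had 2 of 5 alveolar epithelial, 2 of 3 endothelial, 1 of 4 T and B cell, 1 of 3 neutrophil and 0 of 3 fibroblast marker genes. Among the markers of other cells, Ager had 6 shared regions and Pecam1 3, and a region at Cldn5 had folds of 16.6 and 28.0. S100a8 had 3, 1 of them in its promoter (13.6 and 30.7), whereas Sftpc, Sftpb, Cdh5, Ly6g, Retnlg and Col1a2 had no peak. Neither Ager nor Cldn5 was the nearest gene of any shared region, and the Cldn5 region was nearest to Cdc45. By nearest gene, 9 AM, 1 alveolar epithelial, 1 endothelial, 0 T and B cell, 1 neutrophil and 0 fibroblast marker genes had a shared region. Over all protein-coding genes the share was 39.1% by window and 21.5% by nearest gene, so that a region at a marker of other cells is not unusual. Binding near a gene is not expression, and a part of other cells in the results was not tested.

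**Figure D1:**
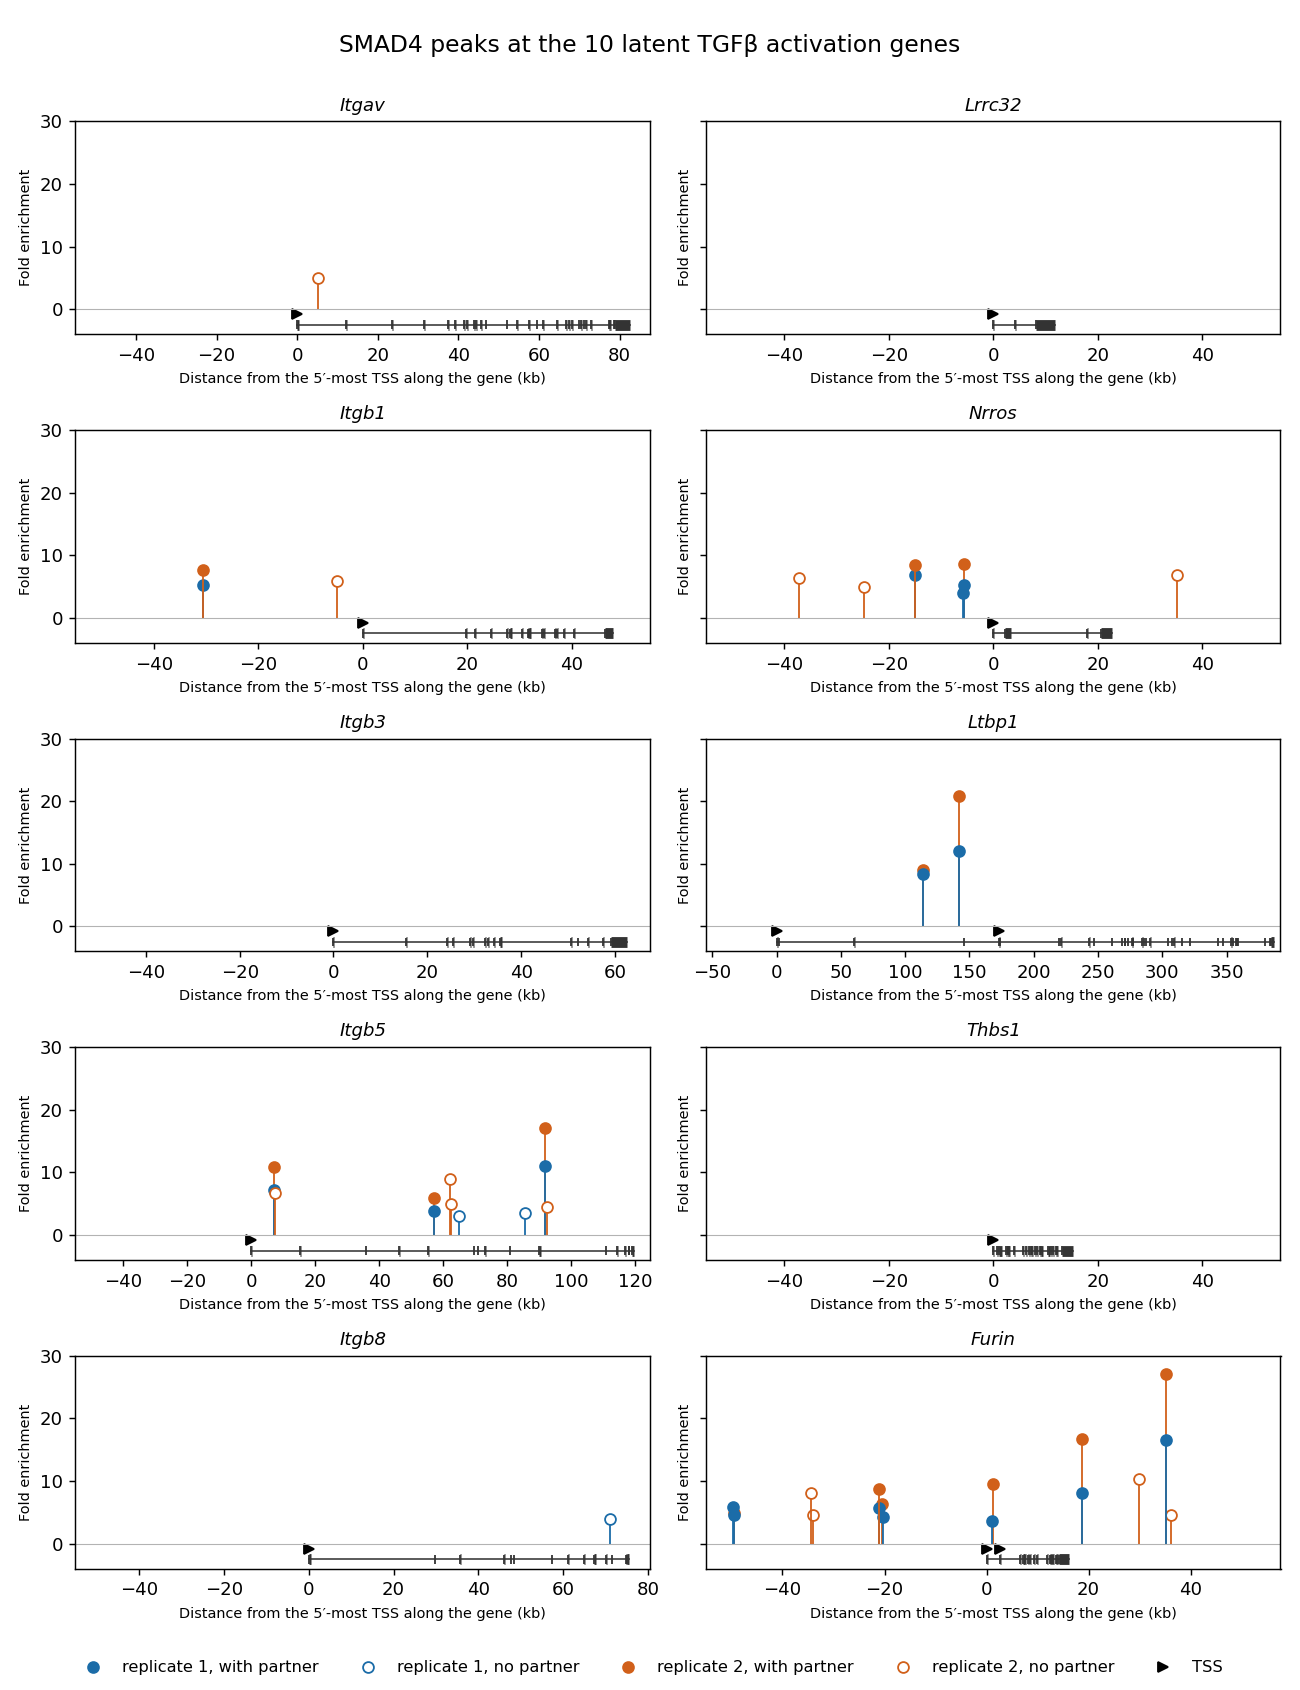
SMAD4 peaks at each of the 10 genes, plotted as fold enrichment against the distance of the summit from the gene's 5′-most TSS in kb along the gene (blue, replicate 1; orange, replicate 2; filled, overlapping a peak of the other replicate; open, without one). The line under each panel is the gene with its exons and the triangles are TSSs; Furin held 17 peaks, and Itgb3, Lrrc32 and Thbs1 held none.

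Furin encodes the protease that cleaves the TGFβ precursor in the secretory pathway. It lies on the minus strand of chromosome 7 at 80389194 to 80405436, with TSSs at 80405436 and 80402812, and its window held 7 peaks of replicate 1 and 10 of replicate 2. Of the protein-coding genes, 1.97% had 6 or more shared regions, and 0.999% had at least as many per length of window. However, the window is crowded with other genes, and 3 of the 6 regions were nearer to another TSS. The window of Fes, the neighbouring tyrosine kinase gene, held 5 shared regions, and that of Man2a2, a Golgi mannosidase gene, held 3.

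The strongest region in the Furin window lay within Man2a2, at chr7:80369864-80370445. Its fold enrichment was 16.6 in replicate 1, on 50 fragments (exact Poisson 95% interval 37.1 to 65.9, counting error only), and 27.1 in replicate 2, on 59 fragments (44.9 to 76.1), a mean of 21.8 ± 7.42 (SD, n = 2). It ranked at percentile 93.3 of all shared regions and was the only one of the 14 regions among the strongest 10%. The summit was in intron 2 of Man2a2, 1149 bp downstream of the Man2a2 TSS and 32586 bp from the nearest Furin TSS. It fell in the windows of 6 protein-coding genes, so that the window rule alone does not tie it to Furin.

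The next strongest lay in intron 3 of Fes at chr7:80386205-80387314, 1177 bp downstream of the Fes TSS and 16043 bp from Furin's. Its folds were 8.12 in replicate 1 (24 fragments) and 16.7 in replicate 2 (36 fragments), a mean of 12.4 ± 6.06 (SD, n = 2). Both of these regions sat just downstream of a neighbour's TSS.

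A single shared region lay inside Furin itself, at chr7:80404038-80404544, in intron 1 of the transcript that starts at 80405436. Its summit was 1175 bp downstream of that TSS and 179 bp upstream of the TSS of Gm44851, a long noncoding RNA gene on the opposite strand, and so was assigned to the promoter of Gm44851. The replicates differed most here. The fold was 3.58 in replicate 1, on 11 fragments (5.49 to 19.7), and 9.48 in replicate 2, on 20 fragments (12.2 to 30.9). The ratio of 2.65 was reached by 1.36% of all shared regions, and the counting intervals of the fragments overlapped. In replicate 1 the control level here was 2.35 fragments, above the background of 2.08, whereas in replicate 2 it was at the background of 1.22. The higher control level lowers the fold of replicate 1 and so raises the ratio.

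Upstream of Furin, 3 shared regions had Furin as the nearest gene. Those at chr7:80425567-80425904 and chr7:80426210-80426703 lay 20374 and 21055 bp upstream in intergenic sequence. The former had folds of 4.22 and 6.32, and the latter folds of 5.67 and 8.79, in replicates 1 and 2. The summit window of the former was 68.2% repeat sequence, the only one of the 14 windows above 50%. The third, at chr7:80454769-80455172, lay 49597 bp upstream in the last exon, exon 22, of the helicase gene Blm. With folds of 5.85 and 4.96 it was the only region of the 10 genes that was lower in replicate 2.

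Furin also had 4 peaks in replicate 2 alone. The strongest, at chr7:80375307-80375639, had a fold of 10.4 on 22 fragments and Man2a2 as nearest gene, and it was the strongest peak without a partner at any of the 10 genes.

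Ltbp1 encodes the protein that links latent TGFβ to the extracellular matrix. The gene spans chr17:75005529-75392512 on the plus strand with TSSs at 75005529 and 75178781, a window of 437 kb, the longest of the 10. Its 4 peaks, 2 in each replicate, were all paired. Both regions lay in intron 3 of the 34-exon transcript that starts at the upstream TSS, and both were upstream of the second TSS, with Ltbp1 as the nearest gene.

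The stronger, at chr17:75147131-75147697 and 31362 bp upstream of the second TSS, had a fold of 12.0 in replicate 1, on 36 fragments (25.2 to 49.8), and of 20.8 in replicate 2, on 45 fragments (32.8 to 60.2), a mean of 16.4 ± 6.17 (SD, n = 2). It was at percentile 85.1 of all shared regions and was the strongest of the 14 with one of the 10 genes nearest. The weaker, at chr17:75119439-75119822, lay 59171 bp upstream of the second TSS with folds of 8.45 and 9.02, the closest agreement between replicates among the 14 regions. Its summits were the farthest apart, at 114 bp, compared with a median of 33.5 bp. Relative to its length Ltbp1 was not rich in regions, and 38.1% of protein-coding genes had at least as many per length of window.

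Among the integrin genes, Itgb5 had the most shared regions. It encodes the β5 chain, which pairs with αV. The gene lies at chr16:33829665-33949338 on the plus strand, and its window held 5 peaks of replicate 1 and 7 of replicate 2. Of these, 6 formed 3 shared regions, a number that 10.3% of protein-coding genes reached, while 16.4% had at least as many per length of window. All 3 were intronic.

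The strongest region of Itgb5 was in intron 10 of a 15-exon transcript at chr16:33921509-33922061, 91990 bp into the gene, with Umps, a gene of pyrimidine synthesis, as the nearest TSS at 45383 bp. Its fold was 11.0 in replicate 1, on 33 fragments (22.7 to 46.3), and 17.1 in replicate 2, on 37 fragments (26.1 to 51.0), a mean of 14.1 ± 4.31 (SD, n = 2) at percentile 81.8. The region in intron 1, 7140 bp from the TSS at chr16:33836600-33836970, had folds of 7.15 and 10.8. That in intron 5, at chr16:33886802-33887024, was weak, with folds of 3.90 and 5.87 on 11 and 12 fragments, at percentile 5.15. A further 6 peaks had no partner, 2 in replicate 1 and 4 in replicate 2, of which the strongest had a fold of 9.02 at chr16:33891646-33891930.

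Itgb1 encodes the β1 chain, which pairs with many α chains, αV among them. The gene lies at chr8:128685654-128733579 on the plus strand. Its only shared region was intergenic, 30520 bp upstream of the TSS at chr8:128655060-128655342, with a fold of 5.20 in replicate 1 (15 fragments) and 7.67 in replicate 2 (16 fragments), a mean of 6.44 ± 1.75 (SD, n = 2). It ranked at percentile 29.7, and 84.2% of protein-coding genes with a shared region had one at least as strong. A peak 4853 bp upstream of the TSS, with a fold of 5.87, was listed in replicate 2 alone.

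Itgav, Itgb8 and Itgb3 had no shared region in their windows. Itgav encodes the αV chain common to the integrins that release TGFβ, and its only peak was in replicate 2, 5055 bp downstream of the TSS in an intron, at chr2:83729257-83729562, with a fold of 4.96 on 10 fragments (4.80 to 18.4). Itgb8 encodes the β8 chain of the TGFβ-activating integrin αVβ8. Its only peak within the window was in replicate 1, in an intron at chr12:119167129-119167248, with a fold of 3.90 on 11 fragments (5.49 to 19.7). Both peaks were among the weaker of their lists, whose median folds were 5.52 in replicate 1 and 6.77 in replicate 2. Itgb3, which encodes the β3 chain of platelets and osteoclasts, had its nearest peak 51.8 kb from the TSS, in replicate 2 with a fold of 5.41, and its nearest shared region 167 kb away within Kansl1.

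The tether genes differed in their counts. Nrros encodes the myeloid protein that anchors latent TGFβ1 on the cell surface, and it lies on the minus strand at chr16:32142785-32165594. It had 3 peaks in replicate 1 and 5 in replicate 2. Of these, 5 formed 2 shared regions, a number that 19.5% of protein-coding genes reached. The region nearest to Nrros was intergenic, 5574 bp upstream of its TSS at chr16:32171087-32171464, with folds of 5.20 (15 fragments) and 8.57 (18 fragments), a mean of 6.89 ± 2.39 (SD, n = 2). The other lay 15010 bp upstream at chr16:32180441-32180740, in intron 1 of Bex6 and 804 bp from the Bex6 TSS, with folds of 6.86 (22 fragments) and 8.45 (27 fragments), a mean of 7.65 ± 1.12 (SD, n = 2).

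By the smaller fold the Bex6 region was the stronger of the pair, whereas in replicate 2 alone the order was the opposite (8.57 against 8.45). Its summit window had the lowest GC content of the 14, 32.8% against a median of 48.0%, and 0% of it is masked as repeat in the RefSeq sequence. Yet short runs such as tgtcacaatt recur along the window shown, so that the lack of masking does not make it unique sequence. The control level there was above the background of both lists, at 2.35 and 2.31 fragments. Whether these features play a part in the peak was not tested. Another 3 peaks in the Nrros window were in replicate 2 alone, all with Bex6 or Cep19 as the nearest gene.

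Lrrc32 encodes GARP, the tether best known from regulatory T cells and platelets. No peak lay in its window in either replicate, and the nearest shared region was 74.3 kb upstream of the TSS, with folds of 4.55 and 7.22 and Gucy2d as the nearest gene. Thbs1 encodes thrombospondin 1, a matrix glycoprotein that can activate latent TGFβ, and it had no peak either. Its nearest peak was 104 kb away, and its nearest shared region 115 kb away.

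**Figure D2:**
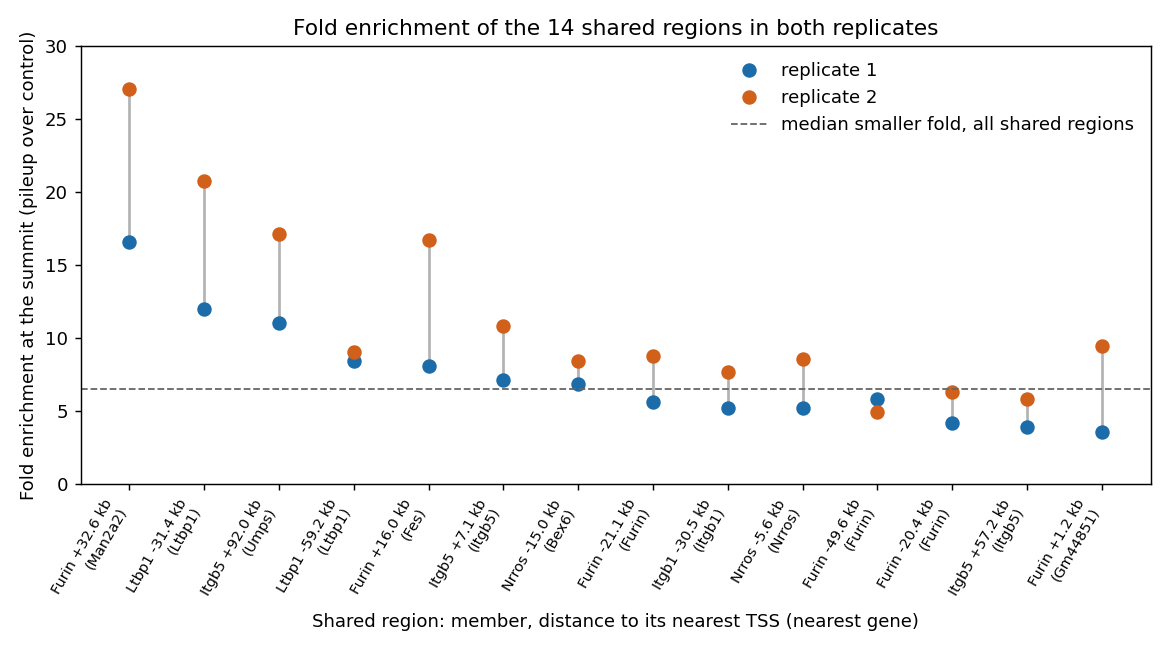
Fold enrichment at the summit of the 14 shared regions in replicate 1 (blue) and replicate 2 (orange), ordered by the smaller fold and named by gene, distance to that gene's nearest TSS in kb and, in brackets, the nearest gene. The dashed line is the median smaller fold of all shared regions (6.50); 7 regions lie above it, and only the Furin region 49597 bp upstream was lower in replicate 2.

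Over the 10 genes there were 46 peaks, of which 30 formed the 14 shared regions. In replicate 1, 16 of 19 peaks had a partner (84.2%), and in replicate 2 14 of 27 (51.9%). Peaks without a partner had folds of 3.05 to 3.90 in replicate 1 and of 4.51 to 10.4 (median 5.87) in replicate 2. Of the 46 peaks 29 had the gene itself as the nearest TSS and 17 another gene. Of the 14 shared regions 9 were nearest to the gene itself, and the other 5 were nearest to Umps, Bex6, Man2a2, Fes and Gm44851.

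Regions of the 10 genes fell on both sides of the median of all shared regions. The median of their smaller folds was 6.26 (range 3.58 to 16.6), compared with 6.50 over all shared regions. Of the bound genes, 3 had a strongest region above the median of all bound protein-coding genes, 7.80: Furin, Ltbp1 and Itgb5. Those of Nrros (6.86) and Itgb1 (5.20) were below it. However, the strongest regions of Furin, Itgb5 and Nrros were nearest to Man2a2, Umps and Bex6, whereas that of Ltbp1 was nearest to Ltbp1. Among window regions nearest to the gene itself, the highest smaller fold was 5.67 for Furin, 7.15 for Itgb5 and 5.20 for Nrros, all below 7.80. The median of 7.80 itself counted regions in a window whatever their nearest gene. The folds of the replicates had a Spearman rho of 0.728 across the 14 regions and 0.782 across all shared regions, where all points come from the same pair of libraries. The ratio of replicate 2 to replicate 1 had a median of 1.53 (range 0.848 to 2.65), and 13 of 14 regions were higher in replicate 2.

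**Figure D3:**
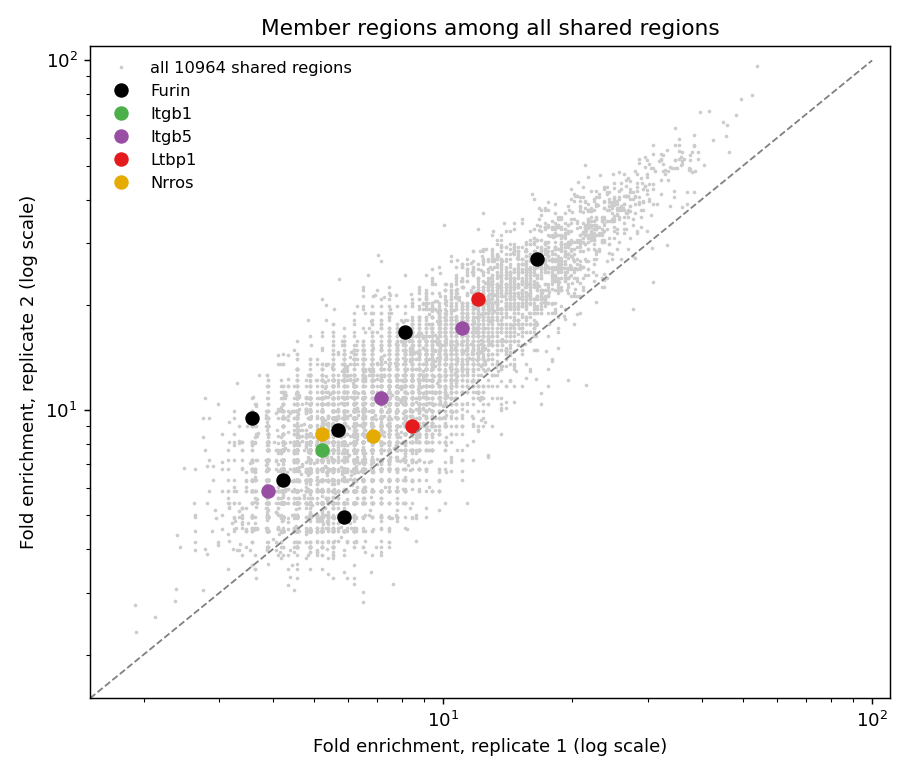
Fold enrichment in replicate 2 against replicate 1 for all 10964 shared regions (grey), with those in the windows of the bound genes in colour, on log axes; the dashed line marks equal folds. The Furin region inside Man2a2 is the highest of the coloured points (16.6 and 27.1), and the Furin region in intron 1 lies farthest above the line (3.58 and 9.48).

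Most of the 14 regions were away from promoters, which here span 1 kb upstream to 100 bp downstream of a TSS. There were 8 in introns, 4 in intergenic sequence, 1 in a promoter and 1 at a transcription termination site, and 0 in exons. A termination site, which spans 100 bp upstream to 1 kb downstream of a transcript's end, was counted before exons, so that the region in the last exon of Blm falls there. Over all shared regions, introns held 49.3%, intergenic sequence 40.5%, promoters 6.42%, termination sites 1.30% and exons 2.49%. No peak covered a TSS of any of the 10 genes. The median distance to the nearest TSS was 20714.5 bp, compared with 18040.5 bp over all shared regions. The 14 regions were selected by lying in a gene body or within 50 kb of a TSS, a limit not set for all shared regions. Their features and distances are therefore in part fixed by the rule, and the shares over all regions are not a like comparison.

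The 50 kb limit excluded some regions by little. Outside gene bodies, the farthest region inside it was the Furin region 49597 bp upstream. Just outside were a region 51.9 kb from the Nrros TSS at chr16:32113493-32113998, with folds of 6.82 and 14.4 and Cep19 as nearest gene, and a region 52.2 kb upstream of Furin at chr7:80457337-80457859, with folds of 6.17 and 9.02 and Furin as nearest gene. Between the limit and 100 kb there were 11 such regions at 7 of the genes.

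Consensus strings of 12 kinds were searched on both strands in the 201-bp summit windows. At least 1 was found in 9 of 14 windows, compared with 70.0% of all shared regions. The CEBP string (TTNNNNAA, with purine and pyrimidine alternating in the middle) was in 3 windows and in 23.6% of all, AP-1 (TGACTCA or TGAGTCA) in 3 and 8.91%, and the nuclear receptor string (AGGTCA) in 3 and 15.4%. The E-box (CACGTG) was in 2 windows and in 3.65% of all. PU.1 (GAGGAAGT, 7.999% of all), the ELF5-type ETS string (CAGGAAGT, 5.62%) and RUNX (TGTGGTC or TGTGGTT, 16.3%) were each in 1. Within 50 bp of the summit AP-1 and the nuclear receptor string were each in 1 window and RUNX in 0, and within 200 bp the nuclear receptor string was in 6 and PU.1 in 2. STAT5 (TTCNNNGAA, with a pyrimidine first and a purine last in the middle, 4.27%) and RBPJ (GTGGGAA, 4.14%) were in 0.

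The strings searched for SMAD proteins themselves were found in 1 window of 201 bp, and shorter forms such as GTCTG were not searched. The Itgb5 region in intron 5 held both GTCTGG (11.2% of all) and the GC-type string GGCGC (5.24%), and the palindrome GTCTAGAC (0.465%) was in none. Within 200 bp of the summit GTCTGG was in 3 regions, and GGCGC was in 0 within 50 bp and in 0 without replicate 1, that is, around the summits of replicate 2. A string is a match of letters, and its absence says nothing about the factor.

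The strings closest to a summit were in the Furin window. In the region within Man2a2, TTACACAA at chr7:80370212-80370219 was centred 10 bp from the mean summit, and a CACGTG followed 47 bp on the other side. In the Fes region, TTGTGTAA at chr7:80386760-80386767 was 5 bp from it. These are the CEBP capitals of the first and the second sequence shown for Furin. In the Furin intron 1 region, CAGGAAGT at chr7:80404222-80404229 and TGAGTCA at chr7:80404229-80404235 shared 1 base, so that an ETS and an AP-1 string formed 1 run.

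The Ltbp1 regions differed in this respect. The weaker held the only PU.1 string of the 14 windows, GAGGAAGT at chr17:75119650-75119657, followed by AGGTCA at chr17:75119664-75119669 and by its reverse complement farther on. The stronger, at the same GC content of 42.3%, held none of the strings, and neither did the only Itgb1 region nor the Nrros region nearest to its gene. The strongest Itgb5 region held TGTGGTC, 52 bp from its summit. The string in the Bex6 region, TTATATAA, met the CEBP pattern but lay 78 bp from the summit.

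**Figure D4:**
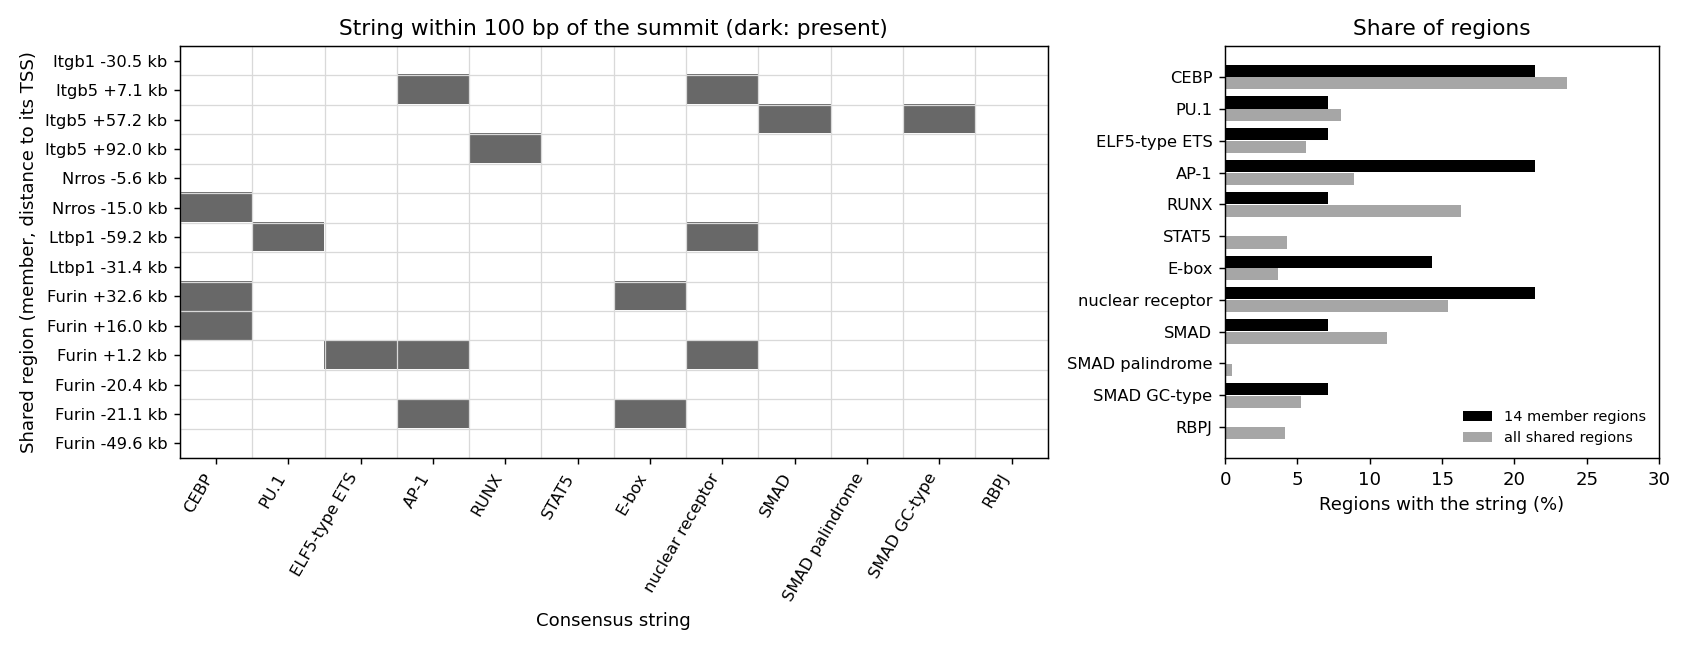
Consensus strings within 100 bp of the mean summit of the 14 shared regions (left; dark, present) and the share of regions in percent that held each string among the 14 regions (black) and among all shared regions (grey; right). CEBP, AP-1 and the nuclear receptor string were each in 3 of the 14 regions at this window size, and 1 region is 7.14%.

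Of 25 other genes of latent TGFβ storage and activation, 9 had a shared region, with 20 regions in all, and 10 had no peak in either list. The share over all protein-coding genes was 39.1%. The 4 with the highest smaller folds were Tgfb1, Tgm2, Plau and Adam17. Tgfb1, the cytokine gene itself, had 4 shared regions in its window, none with Tgfb1 as the nearest gene. The strongest had folds of 19.8 (60 fragments) and 28.4 (62 fragments) at chr7:25706923-25708062, with Ccdc97 as its nearest gene. The strongest region of Tgm2, a transglutaminase that fixes the latent complex to the matrix, had folds of 18.2 and 32.9 and 1700060C20Rik as the nearest gene. The strongest of Plau, which encodes urokinase, was in an exon 6155 bp from its own TSS, with folds of 13.3 and 18.4, and that of Adam17, a sheddase gene, in an intron 3238 bp from its own TSS, with folds of 11.4 and 17.6.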

How the data were processed

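SMAD4 HT-ChIPmentation peak lists of 2 replicates of sorted mouse AMs were analysed. Per the methods, the authors used Cutadapt for trimming, Bowtie2 for alignment to mm10 and PICARD for duplicates, kept properly paired reads of mapping quality above 30 with samtools, and called peaks per sample with MACS3 against input at a q-value of 0.05. Each deposited peak has a fold ratio, −log10 p and −log10 q at the summit, and a score the authors' tool derived from q, which was not used. Pileups were solved from fold and p as the whole number that fitted best. The largest error in log10 p was 0.00052 in replicate 1 and 0.00054 in replicate 2. Sequencing totals were not used.

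Replicate numbers follow accession order and pair nothing. Gene models were 45657 curated RefSeq transcripts (GRCm38.p6, chromosomes 1 to 19 and X), and sequences came from the same RefSeq assembly. Feature classes followed HOMER, which the study used. All 10 genes are named, each with its strongest region in full. The genes, lists and strings were chosen with earlier results of these data known. Assignment and pileups were checked on planted peaks and values made with the same windows and the same formula. That checks the calculation only, not how well the rule or the formula holds for real peaks. Python 3.11.15, numpy 2.4.6, pandas 2.3.3, scipy 1.17.1 and pysam 0.24.0 were used. Windows, overlap, thresholds and replicates were varied as alternatives.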

Additional observations from a re-analysis of the deposited data

How the results depend on the processing

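The count of bound genes moved with the window. It was 8 of 10 within 100 kb, where Itgav, Itgb8 and Lrrc32 were added, and 3 with the gene body alone. The 14 shared regions became 7 within 10 kb, 25 within 100 kb and 6 in gene bodies, and the share of protein-coding genes became 54.9% within 100 kb, 20.6% within 10 kb and 14.1% in gene bodies. Regions ranged from 19 without replicate 2 to 27 without replicate 1, where peaks of 1 list need no partner. A promoter of 3 kb either side of a TSS held 4 regions. Of 98 alternative values, 9 of the main counts and shares and 8 of the counts of single strings moved, the latter with the summit window or, for GGCGC, without replicate 1. A value counted as moved when it differed from the main value by a factor above 1.5. Under reciprocal overlap, close summits, stricter q, a minimum fold of 5 and all RefSeq transcripts the bound genes numbered 5. The shared regions numbered 10, 13, 12, 10 and 15 under these settings, in the same order. The genes nearest to a shared region fell from 6 to 5 under reciprocal overlap and with all RefSeq transcripts. The strongest region changed for Nrros without replicate 1. No paired analysis was possible because the labels give the libraries no shared replicate numbers. The weakest regions rest on as few as 10 fragments, and with n = 2 an SD is imprecise.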

Other observations

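Some regions outside the 50 kb windows had one of the 10 genes as the nearest gene. The strongest belonged to Itgb8, at chr12:119157586-119158414, with folds of 15.6 in replicate 1 (47 fragments) and 18.5 in replicate 2 (40 fragments), at percentile 92.1 of all shared regions. It lay 4.89 kb beyond the 3′ end of the gene and 80.4 kb from its TSS, so that the window rule left Itgb8 without a shared region while the nearest gene rule gave it one. Itgb1 had 2 such regions. The farther, 126 kb upstream at chr8:128559203-128559731, had folds of 11.0 and 14.9, both above those of its region within the window, and the other, 91.4 kb upstream, had folds of 4.87 and 6.77.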
